A study of Takifugu alboplumbeus with 24 samples.

Results

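The data describe 8 genes of lipid, peroxisome and mitochondrial metabolism in the brain of the grass puffer, Takifugu alboplumbeus, over the spawning season. The genes were chosen by name because their levels drifted from May to July, both over all dates and within the spring tides and the neap tides taken separately. They are stmp1, hsdl2, g0s2, cat and slc25a34, which were lower at later dates, and srebf1, acaca and pank4, which were higher. All 8 had 1 row each in the deposited table of 24935 genes and transcripts, and all 8 were among the 17058 with a mean FPKM of at least 1 that were tested. FPKM counts fragments per length of transcript and per size of library. The FPKM of a library need not sum to the same total, and here the sums differed.

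The fish were wild males, age not given, caught in 2020 at a spawning beach at Minamichita in Japan and brought back alive to the laboratory. A single piece of brain, made up of hypothalamus, pituitary and the ventral side of the telencephalon, was taken at about 19:00. There were 8 weekly dates with 3 libraries each, 24 libraries in all. In order of time they were New moon May, Waxing moon May, Full moon June, Waning moon June, New moon June, Waxing moon June, Full moon July and Waning moon July. Dates at new or full moon are called spring tides (12 libraries) and dates at waxing or waning moon neap tides (12 libraries). The labels name no treatment, genotype or strain, and they do not say whether a library is 1 animal. The p-values therefore measure the spread between these samples, within and between dates, and not a known spread between animals. Tide and time varied between the 8 dates only, so for both the dates rather than the libraries are the independent units.

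Fat for energy is released from lipid droplets, carried to mitochondria as acyl groups and broken down there or in peroxisomes, while acetyl-CoA left over can be built back into fatty acids. Acetyl-CoA carboxylase makes malonyl-CoA, which feeds fatty acid synthesis and at the same time blocks the entry of acyl groups into mitochondria. In the brain, much of this chemistry takes place in glia, and in mammals the hypothalamus also reads it as a sign of the energy supply.

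The libraries held markers of the labelled tissue. The summed level of 16 neuronal marker rows lay between 2235 and 2898 FPKM over the date means, and that of 12 pituitary rows between 15962 and 55009 FPKM. The FPKM of a library summed to between 435 and 552 kFPKM. The depth of sequencing is unknown, since FPKM does not keep the number of reads, and no interval from counting can be given. In library 2 of Waxing moon May the pituitary hormone genes were low. The mean log2 level of 8 hormone genes at that date had an SD of 3.47, against 0.34 to 0.69 at the other dates.

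Because the slopes over the dates chose the 8 genes, they are given here as a description without a test. The orderings of single libraries given below rest on the same choice. Except by moon phase, they were not counted over all genes. A slope is the change of log2(FPKM + 1) per week in a model with the tide and the date number, fitted with limma. Over all 17058 genes 0 slopes passed an adjusted p of 0.05 (0%). The smallest adjusted p was 0.0516, and 1446 genes (8.48%) had an unadjusted p under 0.05, of which 884 (5.18%) were higher and 562 (3.29%) lower at later dates. With the 24 libraries treated as independent, 299 genes passed.

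The micropeptide gene stmp1 had the highest level of the 8. Its product sits in the inner mitochondrial membrane, and in mice it binds respiratory complex III. In the first lunar cycle stmp1 had 125.78, 98.83 and 112.85 FPKM at New moon May, 130.95, 119.94 and 117.47 at Waxing moon May, 123.11, 94.12 and 88.14 at Full moon June and 61.61, 64.51 and 70.49 at Waning moon June. In the second cycle stmp1 had 77.11, 67.96 and 75.86 FPKM at New moon June, 47.88, 47.25 and 46.21 at Waxing moon June, 66.92, 75.43 and 80.78 at Full moon July and 61.67, 47.13 and 56.5 at Waning moon July. All 9 libraries of the first 3 dates lay above all 15 libraries of the last 5, a split not counted over all genes. The date mean was 102 FPKM at Full moon June and 65.5 FPKM at Waning moon June, a step from a spring to a neap date. It was 73.6 FPKM at New moon June, a spring date, and 47.1 FPKM at Waxing moon June, a neap date. The slope of stmp1 was -0.15 per week on the log2 scale (SE 0.027), which over 7 weeks makes a fitted ratio of 0.476. It was -0.097 without the date Waxing moon May. Of all genes tested, 46 had a lower slope.

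The peroxisomal protein gene hsdl2, a hydroxysteroid dehydrogenase-like gene, averaged 50.6 FPKM. It had 61.09, 63.12 and 59.98 FPKM at New moon May, 63.05, 53.13 and 52.57 at Waxing moon May, 56.26, 56.42 and 56 at Full moon June and 49.06, 49.33 and 46.71 at Waning moon June. Over the second cycle hsdl2 had 54.29, 47.01 and 48.26 FPKM at New moon June, 44.34, 39.08 and 45.03 at Waxing moon June, 43.61, 51.04 and 48.45 at Full moon July and 41.27, 42.46 and 43.67 at Waning moon July. The 12 libraries of the second cycle (lowest 39.08, median 44.7, highest 54.29 FPKM) overlapped those of the first (lowest 46.71, median 56.1, highest 63.12 FPKM). At the same moon phase they did not overlap in any of the 4 phases. The slope was -0.065 per week (SE 0.012), a fitted ratio of 0.729 over 7 weeks.

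Catalase, encoded by cat, breaks down the hydrogen peroxide that peroxisomal oxidation releases. Its levels were 31.35, 26.62 and 30.94 FPKM at New moon May, 27.07, 28.57 and 25.43 at Waxing moon May, 22.64, 25.5 and 25.63 at Full moon June and 22.37, 24.49 and 21.74 at Waning moon June. Later cat had 22.99, 22.82 and 22.99 FPKM at New moon June, 20.32, 21.79 and 20.18 at Waxing moon June, 24.3, 24.01 and 23.34 at Full moon July and 19.49, 19.36 and 19.13 at Waning moon July. New moon May was the highest date and Waning moon July the lowest, and at Full moon July the 3 libraries lay within the range of Full moon June. The slope was -0.063 per week (SE 0.012), and the fitted ratio over 7 weeks was 0.738. The deposited row of cat pools several transcripts that are not in the reference set.

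The smallest level among the lower genes belonged to slc25a34, a member of the mitochondrial carrier family that moves metabolites across the inner membrane. It had 8.76, 6.41 and 6.59 FPKM at New moon May, 5.92, 6.26 and 4.09 at Waxing moon May, 6.77, 7.23 and 5.76 at Full moon June and 4.62, 5.03 and 3.84 at Waning moon June. In the second cycle slc25a34 had 4.95, 4.8 and 4.29 FPKM at New moon June, 2.43, 3.12 and 3.07 at Waxing moon June, 5.7, 4.79 and 4.55 at Full moon July and 2.32, 3.17 and 3.43 at Waning moon July. Every neap date had a mean below that of the spring date before it. All but the last, which no spring date follows, also lay below the spring date after it. The slope was -0.11 per week (SE 0.024), a fitted ratio of 0.592. The row also holds a transcript described as transmembrane protein 82-like, so part of its level may belong to that gene.

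The steepest slope of the 8 belonged to g0s2, whose product inhibits adipose triglyceride lipase, the enzyme that opens the breakdown of stored fat. Levels of g0s2 were 11.14, 8.1 and 7.39 FPKM at New moon May, 13.1, 7.73 and 7.21 at Waxing moon May, 7.09, 6.51 and 6.85 at Full moon June and 7.19, 9.17 and 6.66 at Waning moon June. In the second cycle g0s2 had 1.57, 4.82 and 4.86 FPKM at New moon June, 3.26, 6.62 and 5.86 at Waxing moon June, 2.43, 0.67 and 1.43 at Full moon July and 1.95, 4.07 and 5.06 at Waning moon July. Only 1 library of the second cycle, at 6.62 FPKM, lay above the lowest of the first cycle, at 6.51 FPKM. The slope was -0.27 per week (SE 0.051), a fitted ratio of 0.268 over 7 weeks on the log2(FPKM + 1) scale, which understates the change of so low a gene. With a pseudocount of 0.1 the slope was -0.34. Of all genes tested, 4 had a lower slope.

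Of the genes with higher levels at later dates, srebf1 encodes the transcription factor SREBP-1, which switches on genes of fatty acid synthesis. Its levels were 17.52, 17.92 and 17.33 FPKM at New moon May, 15.21, 18.47 and 20.27 at Waxing moon May, 14.12, 16.96 and 16.88 at Full moon June and 21.22, 18.67 and 17.94 at Waning moon June. In the second cycle srebf1 had 17.87, 21.76 and 18.79 FPKM at New moon June, 23.67, 19.2 and 21.51 at Waxing moon June, 23.42, 23.08 and 19.37 at Full moon July and 23.82, 26.69 and 23.83 at Waning moon July. Date means stayed between 15.99 and 17.98 FPKM over the first 3 dates and then stood higher at each later date, up to 24.8 FPKM at the last. The slope was 0.067 per week (SE 0.017), a fitted ratio of 1.38.

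A known target of SREBP-1 is acaca, which encodes acetyl-CoA carboxylase. Its levels were 11.48, 12.52 and 13.98 FPKM at New moon May, 10.39, 11.63 and 12.25 at Waxing moon May, 9.76, 12.03 and 10.56 at Full moon June and 13.56, 13.32 and 14.68 at Waning moon June. From New moon June on acaca had 13.7, 15.74 and 12.51 FPKM at New moon June, 16.04, 15.69 and 14.75 at Waxing moon June, 12.93, 12.65 and 12.73 at Full moon July and 21.59, 20.94 and 18.97 at Waning moon July. The 3 libraries of Waning moon July lay above all 21 others, while those of Full moon July lay within the range of New moon May. How many of all genes did so was not counted. The slope was 0.073 per week (SE 0.019), a fitted ratio of 1.43, and 0.043 without the date Waning moon July. Much of the slope of acaca thus rested on the last date.

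The pantothenate kinase family member pank4 works around coenzyme A. In humans its product has lost kinase activity and, as a phosphatase, limits coenzyme A synthesis. Levels of pank4 were 10.29, 9.81 and 10.88 FPKM at New moon May, 9.88, 11.02 and 10.66 at Waxing moon May, 10.06, 11.27 and 10.81 at Full moon June and 12.55, 12.43 and 12.45 at Waning moon June. In the second cycle pank4 had 11.01, 11.95 and 11.64 FPKM at New moon June, 12.71, 13.38 and 12.96 at Waxing moon June, 11.15, 11.27 and 12.12 at Full moon July and 13.18, 14.36 and 13.41 at Waning moon July. The highest 9 libraries of pank4 were those of the last 3 neap dates, an order not counted over all genes. The slope was 0.041 per week (SE 0.010), a fitted ratio of 1.22, the smallest change of the 8. The spread of pank4 within dates, an SD of 0.059 on the log2 scale, was below that of all but 0.41% of the genes tested.

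**Figure D1:**
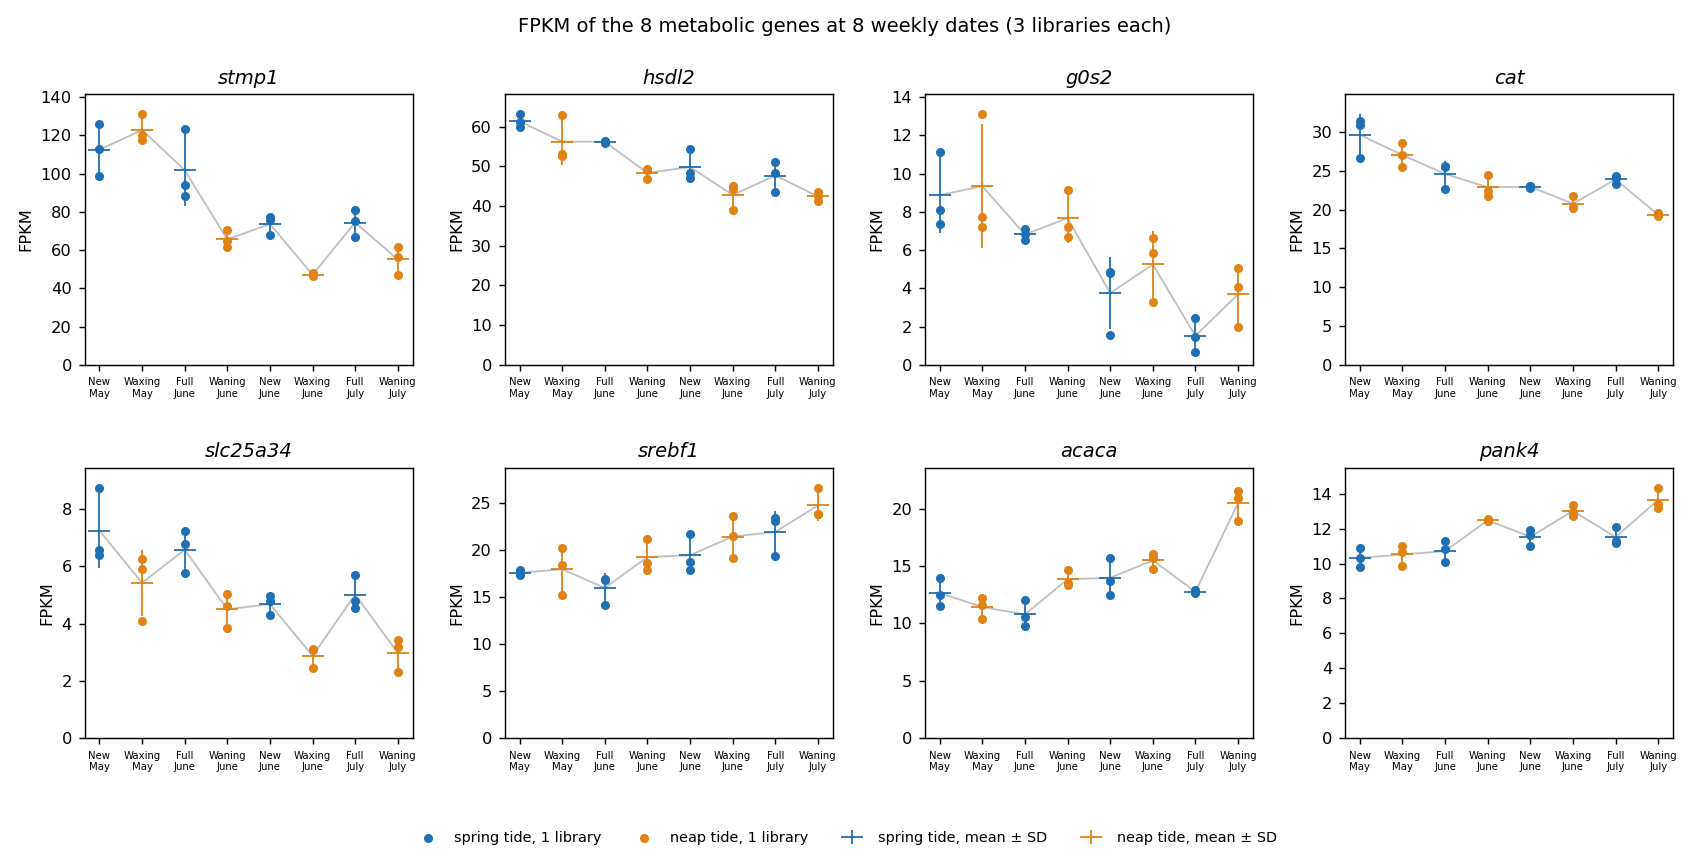
FPKM (vertical axes, from 0) of the 8 genes at the 8 weekly dates (horizontal axes, in order of time), with 1 point per library, and a bar and line for the mean and SD of the 3 libraries of a date; spring tides are blue and neap tides orange. The 5 genes stmp1, hsdl2, g0s2, cat and slc25a34 end below their May level and srebf1, acaca and pank4 above it, with stmp1 parted between the first 3 and the last 5 dates and acaca highest at Waning moon July. Such splits were not counted over all genes.

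Within each tide the slopes had the same sign as over all dates, as the choice of the genes required. Within the spring dates the slope was -0.11 per week for stmp1 (SE 0.036), -0.063 for hsdl2 (SE 0.016), -0.34 for g0s2 (SE 0.067), -0.049 for cat (SE 0.016) and -0.088 for slc25a34 (SE 0.032). Within the neap dates it was -0.20 for stmp1, -0.068 for hsdl2, -0.20 for g0s2, -0.076 for cat and -0.13 for slc25a34, with the same SE as within the spring dates. Thus g0s2 was the only one of the 5 lower genes whose slope was steeper in the spring dates. Of the higher genes, srebf1 had 0.058 within spring and 0.075 within neap dates (SE 0.023 each), and pank4 had 0.027 within spring and 0.055 within neap dates (SE 0.013 each). For acaca the slope was 0.020 within spring dates and 0.13 within neap dates (SE 0.022 each), the widest gap among the higher genes. The differences between the tides were not tested, since the choice of the genes used these slopes.

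**Figure D2:**
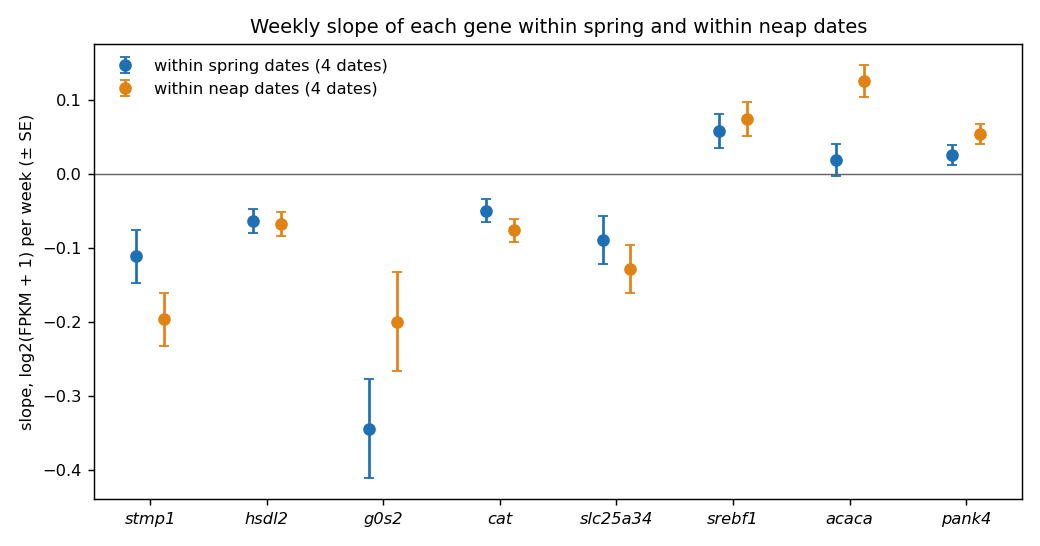
Weekly slope of log2(FPKM + 1) of each of the 8 genes (vertical axis, with SE) within the 4 spring dates (blue, left) and the 4 neap dates (orange, right). All 16 slopes have the sign of the slope over all dates, and acaca has the widest gap among the higher genes, 0.020 in spring and 0.13 in neap dates.

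The 2 lunar cycles hold each moon phase once, so the later date can be set beside the earlier date of the same phase. This uses the same contrast as the slopes and is a description. The mean of the second cycle over that of the first was 0.434 for g0s2, 0.622 for stmp1, 0.654 for slc25a34, 0.823 for hsdl2 and 0.835 for cat. It was 1.24 for srebf1, 1.29 for acaca and 1.13 for pank4. All 3 later libraries lay below all 3 earlier ones in 4 of 4 phases for hsdl2, g0s2 and slc25a34, and in 3 of 4 for stmp1 and cat. Among all genes tested, 80 (0.469%) did so in at least 3 phases and 3 (0.0176%) in all 4, and these 3 genes are hsdl2, g0s2 and slc25a34. All 3 later libraries lay above all 3 earlier ones in 3 phases for acaca and pank4 and in 2 for srebf1, and 129 genes (0.756%) did so in at least 3 and 5 (0.0293%) in all 4. The exceptions were the waning moons for stmp1, the full moons for cat and pank4, the new moons for acaca, and the new and waxing moons for srebf1, where libraries overlapped. The widest ratios at 1 phase were 0.222 for g0s2 at the full moons, with 1.51 ± 0.883 FPKM in July and 6.82 ± 0.291 FPKM in June, and 0.384 for stmp1 at the waxing moons, with 47.1 ± 0.843 FPKM in June and 123 ± 7.18 FPKM in May (SD, n = 3 libraries).

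The comparison between spring and neap tides, held at equal date number, was not itself used to choose the genes and was tested. It is not independent of that choice. Spring dates came earlier on average than neap dates, so each tide difference takes in the gene's slope, which chose it. The FPKM means given beside tide differences, here and below, are not held at equal date number. They do not yield the log2 differences, and their SD includes the drift. None of the 8 genes passed (limma, 0 of 8 against 112 of 17058 genes, 0.657%, with 30 higher, 0.176%, and 82 lower, 0.481%, at spring tide). With an unadjusted p under 0.05, 4 of the 8 differed (hsdl2, g0s2, slc25a34 and pank4), against 21.8% of all genes. With the libraries treated as independent, g0s2, slc25a34 and pank4 passed, 3 of 8, against 2995 of all genes (17.6%). With date means as samples, 0 of all genes passed. The direction split the genes. The carrier gene slc25a34 was closest to the threshold and higher at spring tide, with 5.88 ± 1.24 FPKM at spring and 3.94 ± 1.24 FPKM at neap tide (SD, n = 4 dates). Its log2 difference at equal date number was 0.39 (SE 0.11, limma, adjusted p = 0.0678). It passed without library 1 of Waxing moon May (0.41, limma, adjusted p = 0.0397), where 793 of all genes did (4.65%, against 0.657% with all libraries).

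The lipolysis inhibitor g0s2 was lower at spring tide, with 5.24 ± 3.26 FPKM at spring and 6.49 ± 2.51 FPKM at neap tide (SD, n = 4 dates). At equal date number the log2 difference was -0.65 (SE 0.24, limma, adjusted p = 0.121). The slope of g0s2 that chose it, -0.27 per week, is part of this difference. In each of the 4 pairs of a spring date and the neap date that follows, the spring date had the lower mean of g0s2, although the means of the 2 tides differed by less than their SD. The spring date was also lower in 4 pairs for srebf1 and pank4, 3 for acaca, 1 for stmp1 and 0 for hsdl2, cat and slc25a34. The neap date of each pair is the later one, so these counts take in the drift that chose the genes. Such pairs were not counted over all genes. For pank4 the means were 11.02 ± 0.600 FPKM at spring and 12.4 ± 1.35 FPKM at neap tide (log2 difference -0.11, SE 0.047, limma, adjusted p = 0.168). For acaca they were 12.5 ± 1.32 FPKM at spring and 15.3 ± 3.84 FPKM at neap tide (log2 difference -0.17, SE 0.087, limma, adjusted p = 0.242). For srebf1 they were 18.8 ± 2.57 FPKM at spring and 20.9 ± 2.97 FPKM at neap tide (log2 difference -0.079, SE 0.079, limma, adjusted p = 0.579).

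The mean of stmp1 was 90.6 ± 19.6 FPKM at spring and 72.6 ± 34.3 FPKM at neap tide (SD, n = 4 dates). The log2 difference was 0.23 (SE 0.12, limma, adjusted p = 0.267), and it turned to -0.092 with the FPKM sum of the library as a covariate. The mean of hsdl2 was 53.8 ± 6.23 FPKM at spring and 47.5 ± 6.44 FPKM at neap tide (log2 difference 0.11, SE 0.055, limma, adjusted p = 0.225), and that of cat 25.3 ± 3.00 FPKM at spring and 22.5 ± 3.35 FPKM at neap tide (0.10, SE 0.055, limma, adjusted p = 0.274). Both differences turned round when libraries were rescaled to a common sum, to -0.013 for hsdl2 and -0.023 for cat. That scaling moved the median difference of all genes to -0.15. Without the date Waxing moon May, 3397 genes passed over all (19.9%), and among them were stmp1 (0.48, limma, adjusted p = 0.00934), slc25a34 (0.44, limma, adjusted p = 0.0170), pank4 (-0.17, limma, adjusted p = 0.0247) and g0s2 (-0.83, limma, adjusted p = 0.0352). Without the date Full moon July, 0 genes passed, and the difference was 0.11 for stmp1, 0.029 for cat, -0.45 for g0s2, -0.075 for pank4 and -0.058 for acaca. The size of the tide differences thus depended on which date was left out. Without library 2 of Waxing moon May, the one low in hormone transcripts, 61 genes passed and 0 of the 8. The slopes of the 8 genes without it ranged from -0.28 for g0s2 to 0.072 for acaca, which does not show how far the others changed.

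The summed markers of 3 of the 12 cell type lists had spring and neap date means that did not overlap. How many of all genes did so was not counted. Tested gene by gene for the tide, 0 of 11 pituitary, 0 of 2 germ cell and egg and 1 of 11 endothelial markers passed. Over all genes 0.657% did. The pituitary sum was 32084 to 55009 FPKM at the spring dates and 15962 to 19452 FPKM at the neap dates. The pomc and cga rows made up 72.2% of it. The germ cell and egg sum was 73.4 to 523 FPKM at spring and 11.7 to 39.1 FPKM at neap dates, nearly all of it from 2 egg coat (zp3) rows. The endothelial sum was 154 to 162 FPKM at spring and 176 to 202 FPKM at neap dates. With the pituitary score as a covariate the tide difference was 0.24 for stmp1, 0.099 for hsdl2, 0.13 for cat, 0.43 for slc25a34, -0.80 for g0s2, -0.053 for srebf1, -0.17 for acaca and -0.099 for pank4, and 0 of the 8 passed. The part of these markers in the tide differences was not otherwise tested.

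**Figure D3:**
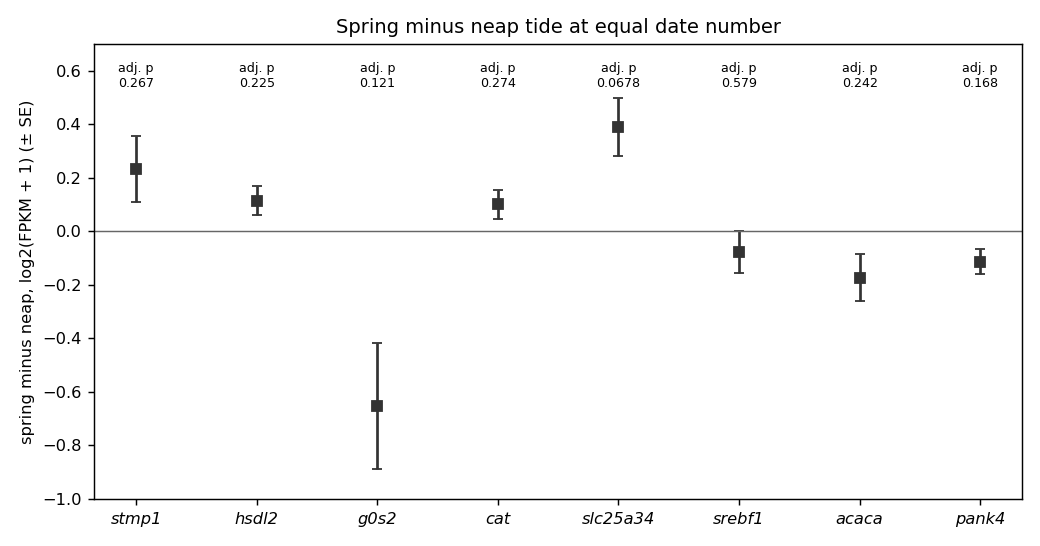
Spring minus neap difference in log2(FPKM + 1) at equal date number (vertical axis, with SE) for the 8 genes, with the limma adjusted p printed above each. The value is above 0 for stmp1, hsdl2, cat and slc25a34 and below 0 for g0s2, srebf1, acaca and pank4; none passes 0.05, and slc25a34 is closest at 0.0678.

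A squared term of the date number tested for a smooth bend in the drifts. It was not built to show a step between 2 dates or a course that differs between the tides. Over all genes 0 of 17058 passed (0%), 750 had an unadjusted p under 0.05 (4.4%, with 1.66% bent upward and 2.73% downward), and with libraries as independent 12 passed. None of the 8 genes passed (limma, adjusted p = 0.9998 for each), and 0 of the 8 had an unadjusted p under 0.05. The largest for its error was acaca, bent upward by 0.018 per week squared (SE 0.0087, unadjusted p = 0.0507 in limma). A missed threshold does not show a straight course, and in simulated data with a squared term of 0.04 only 41.8% were recovered.

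Within a date, some pairs of the 8 genes deviated together and others oppositely. The correlation of their deviations from the date means over the 24 libraries lay between -0.69 and 0.53 for the 28 pairs, with a median of -0.049, and 13 of the 28 were over 0.3 in size. These values share the library and its FPKM scale and are descriptive. Taking out the date means leaves fewer independent values than 24, and pairs of other genes were not counted. The 13 pairs of genes that drifted in the same direction had a median of 0.17, and the 15 pairs that drifted oppositely a median of -0.29. The strongest were -0.69 between stmp1 and srebf1, 0.53 between g0s2 and slc25a34, 0.52 between acaca and pank4, 0.48 between srebf1 and acaca and 0.48 between cat and slc25a34. Among all genes tested, the spread of cat within dates was below that of all but 2.62% and that of hsdl2 below all but 7.12%, while that of g0s2 was above 94.0%.

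The genes whose log2 levels were most like each of the 8 over the 24 libraries are given by Pearson correlation, among genes with a symbol other than a LOC number and as a description, since all points share the dates and so the drift. For stmp1 they were tbca (0.93), ptp4a1 (0.93) and sema6a (0.89), and for hsdl2 stmp1 (0.87), eif4ebp2 (0.86) and dcx (0.85). For cat they were slc25a34 (0.85), basp1 (0.84) and apof (0.83), and for slc25a34 apof (0.88), selenop (0.86) and rhoq (0.86). The nearest to g0s2 were st6gal2 (0.72), sdccag8 (0.72) and kcng1 (0.69), a looser likeness than the others had. For srebf1 they were arfgef1 (0.87), pde7b (0.81) and acaca (0.79), for acaca thrap3 (0.88), sart3 (0.87) and dcaf1 (0.86), and for pank4 kdm3b (0.92), kat14 (0.89) and usp36 (0.88).

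The other genes of the same pathways were counted in lists from which the 8 genes were taken out. The lists were chosen with earlier results of these data known, so their shares beside those of all genes are a description. Here a gene is counted when its slope had an unadjusted p under 0.05, since 0 genes of any list passed after adjustment over all genes, and the counts stand beside 3.29% lower and 5.18% higher over all genes. Mitochondrial fatty acid oxidation had 9 of 27 genes lower (33.3%) and 0 higher, with a median slope of -0.028 per week against 0.0050 over all genes. The 4 with the smallest p were hadh, cpt1a, hadha and etfa. The dehydrogenase gene hadh had 20.2 ± 3.22 FPKM in the second cycle and 24.5 ± 1.58 FPKM in the first (SD, n = 4 dates; slope -0.052, SE 0.016, limma, adjusted p = 0.369). The cpt1a row (LOC101067027), the gate enzyme of acyl entry that malonyl-CoA blocks, had 20.4 ± 2.13 FPKM in the second cycle and 24.6 ± 2.80 FPKM in the first (slope -0.048, SE 0.016, limma, adjusted p = 0.414). The slope was -0.040 for hadha (limma, adjusted p = 0.424) and -0.044 for etfa (limma, adjusted p = 0.531). The others were acadm, acadvl, acad9, eci2 and acaa2, and 20 of the 27 genes had a slope below 0. Without the date Waning moon July the count was 0 of 27, without Waxing moon May 3, without Full moon June 5, with libraries rescaled to a common sum 5, and with date means as samples 4.

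**Figure D4:**
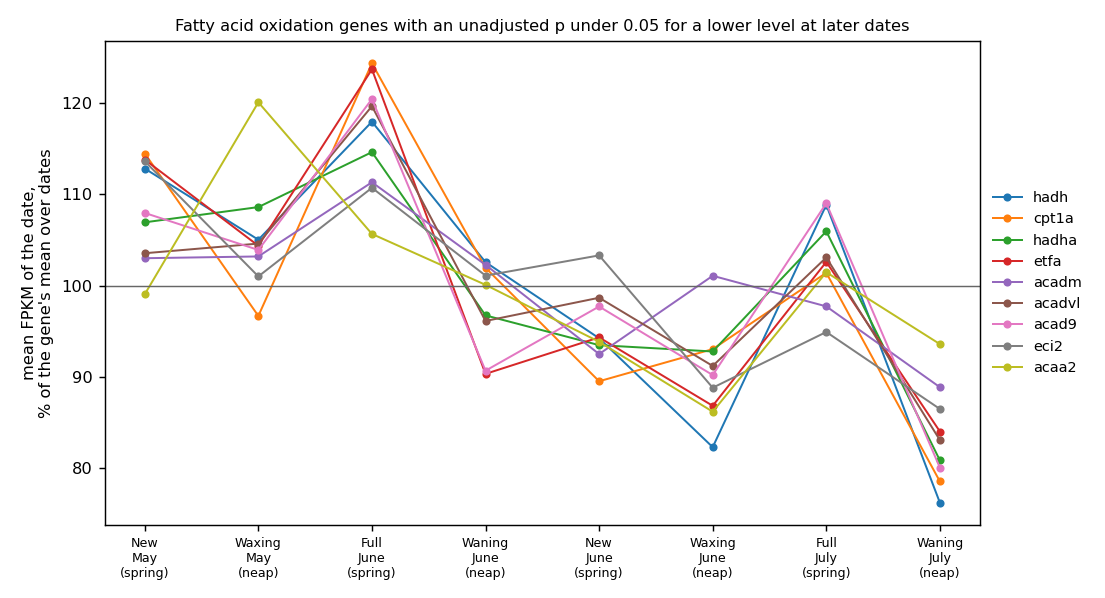
Mean FPKM of each date (vertical axis, as a percentage of the gene's mean over the 8 dates; horizontal axis, dates in order of time) for the 9 fatty acid oxidation genes with an unadjusted p under 0.05 for a lower level at later dates. Most lines peak at Full moon June and have their lowest point at Waning moon July, and 0 of the 9 passed after adjustment over all genes.

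Fatty acid synthesis, the pathway of srebf1 and acaca, had 2 of 23 other genes higher (8.70%) and 0 lower, with a median slope of 0.0033. Of the 13 found by symbol rather than by product name, 0 were higher. The fatty acid synthase row fasn (LOC101069108) had 29.5 ± 5.26 FPKM in the second cycle and 22.5 ± 1.82 FPKM in the first (SD, n = 4 dates; slope 0.082, SE 0.023, limma, adjusted p = 0.369), and like acaca it was highest at Waning moon July, at 37.1 FPKM. Without that date its slope was 0.049 and the count of the list was 0 of 23. The row mid1ip1 (LOC101063727), an activator of acetyl-CoA carboxylase, had a slope of 0.044 (limma, adjusted p = 0.578; 0.018 without Full moon July), elovl1 (LOC101078198) of 0.059 (limma, adjusted p = 0.716) and insig1 of 0.036 (limma, adjusted p = 0.727).

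Of the lipid droplet and lipolysis genes, to which g0s2 belongs, 2 of 23 others were lower and 1 higher. The lipoprotein lipase inhibitor angptl4 had 65.1 ± 11.4 FPKM in the second cycle and 94.4 ± 30.3 FPKM in the first (SD, n = 4 dates; slope -0.15, SE 0.039, limma, adjusted p = 0.369). The triglyceride synthesis gene dgat1 had 5.23 ± 0.474 FPKM in the second cycle and 4.01 ± 0.646 FPKM in the first (slope 0.074, SE 0.021, limma, adjusted p = 0.369). The cideb row (LOC101076923), a lipid droplet gene, had a slope of -0.16 (limma, adjusted p = 0.424). Without the date Waxing moon May the slope was -0.088 for angptl4 and -0.10 for cideb, and the count of lower genes was 0 of 23. The lipase gene pnpla2, the target of the g0s2 product, had a slope of -0.089 (SE 0.044, limma, adjusted p = 0.598; -0.018 without Waxing moon May) and ranged from 7.69 FPKM at Waning moon July to 22.3 FPKM at Full moon July, 1 week apart.

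The peroxisome list, with cat and hsdl2 taken out, had 3 of 58 genes lower (5.17%) and 1 higher, with a median slope of 0.0076. The lower ones were hsd17b4 (-0.040, limma, adjusted p = 0.471), acox3 (-0.047, limma, adjusted p = 0.578) and eci2 (-0.043, limma, adjusted p = 0.578), all enzymes of acyl breakdown. The eci2 gene is also on the fatty acid oxidation list and was counted there too. The higher one was the row nudt12 (LOC115247716; 0.14, limma, adjusted p = 0.547). With 1 date left out the counts ran from 1 to 4 lower and, highest without Full moon July, 0 to 5 higher. The antioxidant list had 2 of 38 lower (5.26%), gpx4 (LOC101066389; -0.046, limma, adjusted p = 0.535) and prdx2 (-0.038, limma, adjusted p = 0.561), and 0 higher. Without the date Waxing moon May the slope was -0.0092 for gpx4 and -0.022 for prdx2, and the count of lower genes was 0 of 38. Next by p in it were txn2 (0.030, limma, adjusted p = 0.592) and txnip (0.049, limma, adjusted p = 0.623).

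The mitochondrial carriers had 2 of 30 lower (6.67%) and 0 higher besides slc25a34, but 0 lower without Full moon June or New moon June and 4 higher without Full moon July. Their 4 smallest p belonged to slc25a10 (-0.035, limma, adjusted p = 0.566), slc25a35 (-0.037, limma, adjusted p = 0.578), slc25a28 (0.031, limma, adjusted p = 0.623) and slc25a15 (-0.026, limma, adjusted p = 0.656). Complex III and its assembly, around which stmp1 works in mice, had 0 of 19 in either direction. Its smallest p belonged to uqcr11 (LOC101070839; 0.037, limma, adjusted p = 0.662; 0.0024 without New moon May), 2 rows of uqcrfs1 (LOC101078837, -0.038, limma, adjusted p = 0.703; LOC101061875, 0.018, limma, adjusted p = 0.710) and uqcrh (LOC101066223; -0.029, limma, adjusted p = 0.758). Coenzyme A synthesis, the pathway of pank4, had 0 of 13 in either direction, led by nudt8 (0.024, limma, adjusted p = 0.676), nudt19 (0.025, limma, adjusted p = 0.680), slc5a6 (LOC101069156; 0.030, limma, adjusted p = 0.735) and dcakd (0.050, limma, adjusted p = 0.776). Without Full moon July 3 of the 13 were higher.

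Of the genes that respond to fasting and insulin, 4 of 30 were higher (13.3%) and 1, angptl4, lower. Without Waxing moon June 2 were higher, and without Waxing moon May 0 were lower. Among the higher ones were 2 rows of the insulin receptor substrate irs2 (LOC101076043, 0.057, limma, adjusted p = 0.417; LOC101074788, 0.035, limma, adjusted p = 0.535) and a row of the insulin receptor insr (LOC101074430; 0.056, limma, adjusted p = 0.547). The first of these had 18.2 ± 1.80 FPKM in the second cycle and 15.2 ± 0.248 FPKM in the first (SD, n = 4 dates). Of the 13 genes of this list found by symbol rather than by product name, 0 were higher.

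The tide was tested in the same lists, and 6 of their 249 genes passed (2.41%, against 0.657% over all genes), singled out after their values were seen. Since the lists were chosen with earlier results of these data known, the 2 shares are not an independent comparison. Lower at spring tide was cpt2 of fatty acid oxidation, the partner of cpt1a on the inner membrane, with 6.16 ± 0.317 FPKM at spring and 7.99 ± 0.599 FPKM at neap tide (SD, n = 4 dates; log2 difference -0.31, SE 0.062, limma, adjusted p = 0.0263). So was the peroxisomal acyl transporter row abcd2 (LOC101073714), with 19.0 ± 1.80 FPKM at spring and 25.3 ± 2.12 FPKM at neap tide (-0.39, SE 0.075, limma, adjusted p = 0.0224). The same held for the insulin receptor substrate irs1 (LOC101072794; -0.72, limma, adjusted p = 0.0343) and the transcription factor klf15 (LOC101071465; -0.49, limma, adjusted p = 0.0370). Higher at spring tide were the dicarboxylate carrier slc25a10 (0.34, limma, adjusted p = 0.0342) and msrb3, which repairs oxidized methionine (0.48, limma, adjusted p = 0.0402). All 6 calls ended with either covariate, with date means as samples and without the date Waning moon June, Waxing moon June, Full moon July or Waning moon July. Without Full moon July the limma adjusted p was 0.791 for cpt2, abcd2 and slc25a10 and 0.919 for the other 3. Quantile normalization also ended the calls of cpt2 and klf15 (limma, adjusted p = 0.0585 for both), TPM scaling that of slc25a10 (limma, adjusted p = 0.0598) and a filter at a mean of 5 FPKM that of msrb3 (limma, adjusted p = 0.0521). Without the date Full moon June the calls of klf15 (limma, adjusted p = 0.0663), irs1 and slc25a10 (0.0609 for both) ended, without New moon May that of klf15 (0.0512) and without New moon June that of msrb3 (0.0552). Leaving out 1 of the 24 libraries ended 0 times the call of abcd2 and 1 time that of cpt2 (Full moon July library 1, limma, adjusted p = 0.0530). It ended 6 times that of slc25a10 (without Waning moon June 2, Waxing moon June 2 or 3, or Full moon July 1, 2 or 3, limma, adjusted p up to 0.0615) and 8 times that of irs1 (these 6, Waning moon June 3 and New moon June 3, up to 0.0678). The calls of klf15 and msrb3 ended 12 times each, without any of those 8, Waxing moon May 2, Full moon June 2, Waxing moon June 1 or Waning moon July 2 (limma, adjusted p up to 0.0704 and 0.0742).

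**Figure D5:**
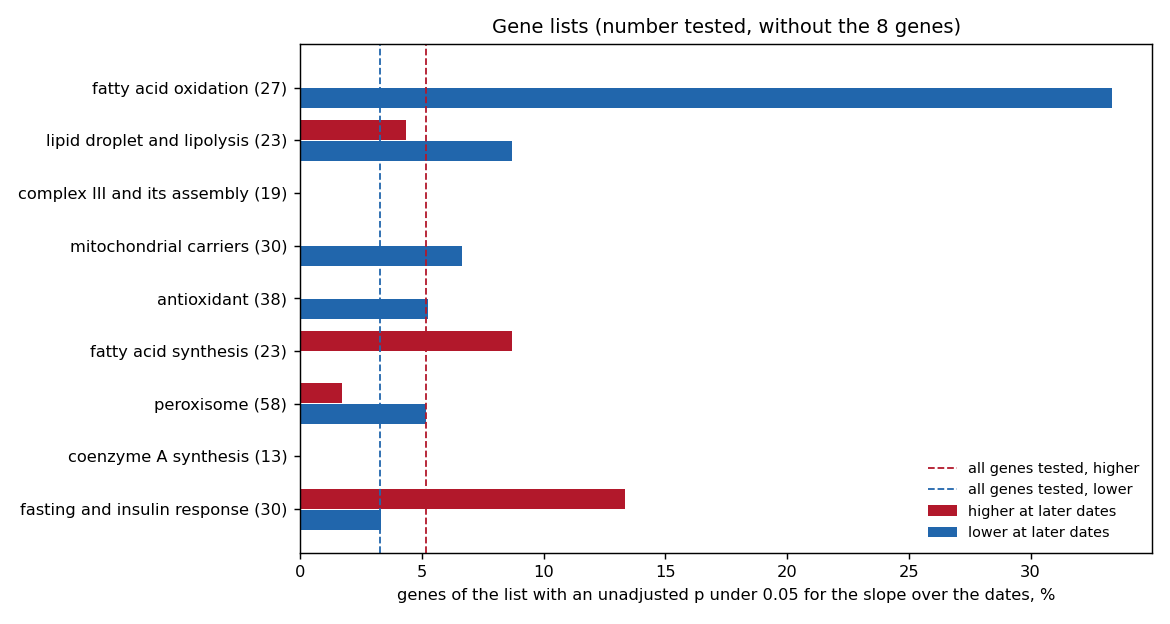
Share of the genes of each list (horizontal axis, %) with an unadjusted p under 0.05 for the slope over the dates, higher in red and lower in blue, with the shares over all 17058 genes as dashed lines; the number tested, without the 8 genes, stands in brackets. Fatty acid oxidation stands at 33.3% lower against 3.29% over all genes, and complex III and coenzyme A synthesis have no such gene in either direction. The lists were chosen with earlier results of these data known.

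Levels of cell type markers also differed over the dates, and in a piece of tissue fewer cells of a type and less RNA per cell cannot be told apart. Markers are counted as lower or higher at an unadjusted p under 0.05 for the slope. Over all genes the shares were 3.29% lower and 5.18% higher, and 0 slopes passed after adjustment. The 16 oligodendrocyte marker rows summed to date means of 1384 to 1786 FPKM in the second cycle and 1666 to 2164 FPKM in the first, with 2 of 12 tested markers lower and 1 higher. The 2 lower were rows of mbp, a myelin protein gene, which made up 70.9% of the sum (slopes -0.10 and -0.099), while 9 of the 12 markers had a slope above 0 and the median slope was 0.017. The sum and its correlations thus follow the mbp rows more than most markers. The 17 rows of hepatocyte markers summed to 4860 to 8555 FPKM in the second cycle and 5465 to 9076 FPKM in the first, with 1 of 7 lower. The 2 most abundant rows, ahsg and apoa1, made up 91.0% of this sum (slopes -0.10 and -0.027), so its correlations follow them. The rows of apob, ttr, fgg and serpina1 each averaged at most 0.31 FPKM. The sum thus stands for its few abundant rows and does not show that liver cells were present. Of the 7 tested rows, 6 had a slope below 0. Over the 24 libraries the summed oligodendrocyte level correlated with stmp1 at 0.78, slc25a34 at 0.72, cat at 0.71, hsdl2 at 0.70 and g0s2 at 0.34, and with srebf1 at -0.49, acaca at -0.59 and pank4 at -0.64. Within dates these values lay between -0.10 and 0.28. The summed hepatocyte level correlated with stmp1 at 0.80, cat at 0.69, slc25a34 at 0.61, hsdl2 at 0.61 and g0s2 at 0.023, and with srebf1 at -0.43, acaca at -0.57 and pank4 at -0.68. Within dates these values were 0.57 for stmp1 and between -0.22 and 0.16 for the other 7. The part of these markers in the drifts was not tested.

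The other marker lists were counted in the same way, at an unadjusted p under 0.05, beside 3.29% lower and 5.18% higher over all genes. Astroglia had 3 of 13 lower, with a sum of 1865 to 2055 FPKM in the second cycle and 1900 to 2155 FPKM in the first. Meninges had 2 of 13 lower, neurons 1 of 16 higher and endothelium 1 of 11 higher. The pituitary had 1 of 11 lower and 2 higher. Microglia (10 tested), ependyma (8), red blood cells (9), adipocytes (3) and germ cells (2) had 0 in either direction. No marker was listed at 0 in all libraries, though several rows averaged under 1 FPKM and were not tested. With the pituitary score as a covariate the slopes of the 8 genes ranged from -0.27 for g0s2 to 0.073 for acaca. When the covariate was the FPKM sum, they ranged from -0.27 to 0.071. Each slope kept its sign, but these ranges do not show how far the slopes between them changed.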

How the data were processed

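The deposited values are FPKM per gene, made by the authors with 2 decimals and no further scaling. HISAT2 2.0.4 and RSEM 1.2.12 are named in the submitters' processing notes, and per the labels' protocols poly-A RNA was read as strand-specific pairs of 100 bases. The build of the genome was not stated in these sources, and no sequence is printed. Row names follow the deposited table. Samples were grouped by the moon phase and month in the labels, and no library was left out.

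FPKM was changed to log2(FPKM + 1), genes with a mean of at least 1 FPKM were kept, and models were fitted in R 4.3.3 (limma 3.58.1, statmod 1.5.0) with an intensity trend and the date as a random block (within-date correlation 0.276, and 0.277 with the squared term). The model held the tide, the date number and, for curvature, its square, and the tide varied between dates only, with Benjamini-Hochberg adjustment over all 17058 genes. The 8 genes, 9 lists of genes and 12 lists of cell type markers were chosen with earlier results of these data known. The genes named besides the 8 are the up to 4 of each list with the smallest p of the slope, and the 3 most correlated with each of the 8. The remaining 5 fatty acid oxidation genes and the 6 tide genes were added after their values were seen. List rows were found by symbol (244) or by product name (231), with a map of product names added after the names had been read. Close paralogues may share reads, so their separate levels are uncertain.

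Libraries correlated at 0.934 to 0.983 and no 2 were identical. In data simulated for 17058 genes, slopes of 0.05, 0.1 and 0.2 per week were recovered in 7.46%, 65.7% and 93.9% of changed genes, tide differences of 0.25, 0.5 and 1 in 26.9%, 74.6% and 90.9%, and squared terms of 0.02, 0.04 and 0.08 in 8.96%, 41.8% and 87.9%. With the deposited values 0 of 17058 slopes passed, including those of g0s2 (-0.27 per week, SE 0.051) and stmp1 (-0.15, SE 0.027). Whether the recovered shares hold for the deposited values was not tested. Alternatives changed the pseudocount, filter, scaling, block, covariates or libraries, and their effect is given at the end.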

Additional observations from a re-analysis of the deposited data

How the results depend on the processing

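The slopes of the 8 genes kept their sign under all 45 alternatives run (44 for slc25a34). The genes were chosen for these slopes, and kept signs were not counted over all genes, so this is a description. The count of genes past the threshold for the slope, 0 in the model as described, was 11 with no filter, 1 with TPM scaling, 7 with median-ratio scaling, 6 with quantile normalization, 299 with libraries as independent, 40 with the FPKM sum and 10 with the pituitary score as covariate, and 0 to 10 without 1 library or date. For the tide, 112 became 343 with no filter, 36 with a mean of at least 5 FPKM, 661 with TPM scaling (22 higher and 639 lower), 71 with quantile normalization (32 and 39), 80 with median-ratio scaling (42 and 38), 0 with date means, 2995 with libraries as independent, 7 with either covariate and 403 without the date number. It ran between 0 (without Full moon July) and 3397 (without Waxing moon May) when 1 library or date was left out. For curvature, 0 became 3 with no filter, 12 with libraries as independent and 8 with the FPKM sum, and 0 to 6 without 1 library or date (6 without New moon May).

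Some signs turned. The tide difference of stmp1 turned to -0.092 with the FPKM sum and those of hsdl2 to -0.013 and cat to -0.023 with TPM scaling. The curvature turned to 0.0031 for g0s2 and 0.00088 for pank4 with the FPKM sum. Without 1 library or date it ran from -0.035 to 0.0089 for g0s2, -0.00047 to 0.022 for slc25a34, -0.0017 to 0.026 for acaca and -0.011 to 0.00058 for pank4. The slope of the uqcrh row LOC101066223 ran from -0.051 to 0.017. Leaving out 1 date shrank the slopes of 25 of the 39 named list genes by over 1.5 times or turned them, in 16 most without Waxing moon May. The cause was not tested.

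No pairing of dates by the numbers 1 to 3 of the libraries was seen. Same-numbered libraries deviated together with a median correlation of 0.016 (-0.30 to 0.24), and different-numbered ones with -0.0082 (-0.30 to 0.35). Of the 24 libraries, 8 correlated best with their own number. Taking out the date means ties these values together, so a weak pairing could be missed. With the replicate block 0 slopes, 95 tide differences and 0 curvatures passed, and no call of the 8 genes changed. Unknown depth limits the low genes g0s2 and slc25a34 most.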
